A study of Mus musculus with 6 samples.

Results

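The genes described here are 10 genes of brown and beige fat: Ucp1, Cidea, Cox7a1, Cox8b, Elovl3, Dio2, Prdm16, Ppargc1a, Zic1 and Kcnk3. Among probe sets annotated to a single gene symbol, the brightest on average stood for each gene, which left 9 of the 10 genes among 22180 measured genes. Kcnk3, a potassium channel gene, is annotated only together with a second gene and has no value here. The tissue was adipose of mouse offspring aged 32 weeks. Of the 6 samples, 3 came from offspring of dams on a chromium restriction diet and 3 from offspring of dams on a control diet, with 1 array per sample. The labels give no strain, sex or fat depot and do not say whether replicates are separate animals. The p-values therefore measure only the spread between these samples, which may be technical. The design asks whether the mother's chromium intake changes gene expression in adult offspring fat.

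Brown adipocytes burn fuel to make heat. Cold and sympathetic nerves act through adrenergic receptors and cyclic AMP, lipolysis supplies fatty acids, and uncoupling protein 1, the product of Ucp1, lets protons leak back across the inner mitochondrial membrane so that respiration runs without making ATP. Beige adipocytes are cells within white depots that can take on the same programme, and Ucp1 in a white depot is the usual sign of them. Thyroid hormone activated by the deiodinase Dio2, the coactivator Ppargc1a and the transcriptional regulator Prdm16 all act upstream of Ucp1.

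In these arrays the classical brown fat genes set the control arrays apart from each other more than they set the 2 diets apart. Ucp1, Cidea, Cox7a1 and Cox8b were high in control replicate 1, intermediate in control replicate 3, and at or near the chromium restriction values in control replicate 2. All 3 chromium restriction arrays were low for these genes and close to each other. Dio2 and Zic1 were low and nearly flat across all 6 arrays. Prdm16 also varied little, near the middle of all genes (above 45.6% to 52.7% of them). No member passed an adjusted p of 0.05 for the diet comparison (limma, Benjamini-Hochberg over all 22180 genes, lowest adjusted p 0.805), and 1 of 9, Cox8b, had an unadjusted p under 0.05.

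The adjacent upstream sequences of 3 genes that were high together in control replicate 1 and of 1 that stayed low, Dio2, are shown as the 250 bases before the annotated start, 5′ to 3′ in the direction of the gene (RefSeq, GRCm38.p6). Of the 10 genes 7 were matched in that table, and Cidea, Elovl3 and Kcnk3 were not matched. Capitals mark every match, on either strand, to 4 motifs: TGACGT, the core of the cyclic AMP response element; AGGTCA, the hexamer bound by nuclear receptors such as the thyroid hormone receptor and PPARs; TATAAA, the TATA box; and CCAAT.
Ucp1, chr8:83290098-83290347, plus strand: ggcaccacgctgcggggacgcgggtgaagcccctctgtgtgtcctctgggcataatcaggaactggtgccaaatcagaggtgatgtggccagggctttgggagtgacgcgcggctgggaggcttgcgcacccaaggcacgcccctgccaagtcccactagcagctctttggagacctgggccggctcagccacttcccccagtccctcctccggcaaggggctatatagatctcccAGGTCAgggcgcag
Cox7a1, chr7:30183921-30184170, plus strand: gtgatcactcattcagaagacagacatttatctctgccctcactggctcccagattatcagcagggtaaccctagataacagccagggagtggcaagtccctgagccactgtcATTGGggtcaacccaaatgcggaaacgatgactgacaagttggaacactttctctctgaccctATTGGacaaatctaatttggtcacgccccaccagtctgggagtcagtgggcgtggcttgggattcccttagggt
Cox8b, chr7:140900447-140900696, minus strand: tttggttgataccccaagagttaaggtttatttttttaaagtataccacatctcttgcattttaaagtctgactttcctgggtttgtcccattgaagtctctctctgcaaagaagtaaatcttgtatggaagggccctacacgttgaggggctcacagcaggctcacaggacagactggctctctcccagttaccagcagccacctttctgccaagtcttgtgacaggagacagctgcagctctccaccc
Dio2, chr12:90739039-90739288, minus strand: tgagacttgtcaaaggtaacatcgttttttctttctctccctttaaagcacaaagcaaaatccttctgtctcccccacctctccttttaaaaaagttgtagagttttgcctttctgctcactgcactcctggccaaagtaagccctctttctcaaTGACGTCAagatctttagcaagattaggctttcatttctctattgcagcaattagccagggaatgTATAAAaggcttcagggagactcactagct

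The Ucp1 window held 1 AGGTCA, starting 14 bases before the start, a motif found in 14% of the 32851 windows of the same length. Cox7a1 held 2 matches to CCAAT, both on the opposite strand (33.8% of windows hold at least 1), and Cox8b held no match to any of the 4. The Dio2 window held TGACGT on both strands, in overlapping matches that start 95 and 93 bases before the start, and 1 TATA box. Among all windows 6.47% hold TGACGT and 12.4% hold the TATA box. Ppargc1a, whose window is not printed, held 1 TGACGT. The 3 printed genes that were high together in control replicate 1 shared none of these motifs. TGACGT was present in Dio2, which was flat, as overlapping matches within TGACGTCA. It was also present in Ppargc1a, for which control replicate 1 was the highest array, and absent from Zic1, which was flat too. Whether any of these motifs bears on the values was not tested. Such matches describe letters in a short window, not binding.

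Ucp1, the uncoupler itself, was listed at 4.87, 4.92 and 4.94 in chromium restriction replicates 1, 2 and 3, and at 10.25, 4.89 and 7.37 in control replicates 1, 2 and 3 (deposited log2 values). Control replicate 2 lay among the chromium restriction arrays, so the groups overlapped. The means were 4.91 ± 0.04 against 7.51 ± 2.68 (SD, n = 3 per group). The log2 difference, chromium restriction minus control, was -2.59 ± 1.24 (SE), with an adjusted p of 0.828 in limma. As a guide to brightness only, the Ucp1 value exceeded 98.0% of all genes on control replicate 1, 74.3% on control replicate 3 and 20.1% to 25.3% on the other 4 arrays. Since no background level is known for these arrays, differences are stated in log2 units and not as folds.

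**Figure D1:**
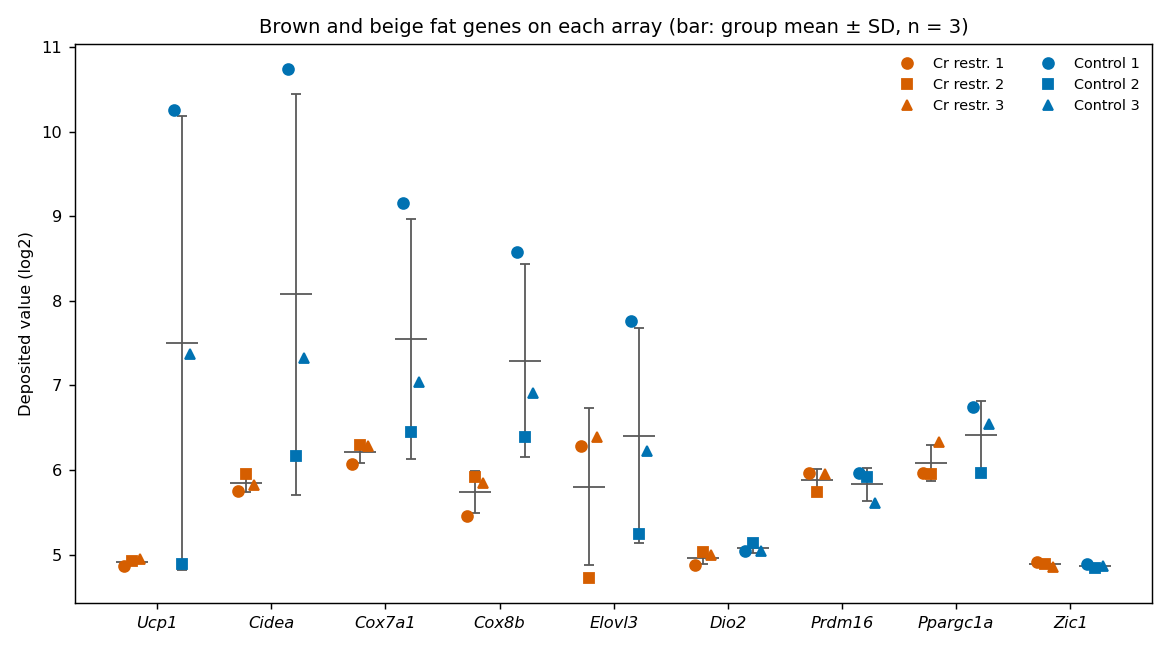
Deposited log2 value (vertical axis) of the 9 measured brown and beige fat genes on each of the 6 arrays, with orange for chromium restriction, blue for control, a marker shape for each replicate number, and a bar with whiskers for the group mean ± SD (n = 3). Control replicate 1 is the highest point for Ucp1 (10.25), Cidea (10.73), Cox7a1 (9.15), Cox8b (8.58), Elovl3 (7.76) and Ppargc1a (6.74), while Dio2, Prdm16 and Zic1 form narrow bands.

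Cidea encodes a lipid droplet protein abundant in brown fat. Its values were 5.75, 5.95 and 5.83 in chromium restriction replicates 1 to 3 and 10.73, 6.17 and 7.32 in control replicates 1 to 3. Every chromium restriction array lay below every control, by 0.21 log2 units at the nearest pair of values. The difference of -2.23 ± 1.10 (SE, n = 3 per group) had an adjusted p of 0.833 in limma. Control replicate 1 stood 3.41 log2 units above the next array, the highest excess of that array for any of the 22180 genes, and Ucp1 followed at 2.89.

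Cox7a1 and Cox8b encode the isoforms of 2 cytochrome c oxidase subunits that are found in brown fat, heart and skeletal muscle. Cox7a1 was at 6.07, 6.30 and 6.28 in the chromium restriction arrays and at 9.15, 6.45 and 7.04 in the controls. Cox8b was at 5.45, 5.91 and 5.85 in the chromium restriction arrays and at 8.58, 6.39 and 6.91 in the controls. For both genes the groups did not overlap, with control replicate 2 above the highest chromium restriction array by 0.16 for Cox7a1 and by 0.48 for Cox8b. The differences were -1.33 ± 0.66 for Cox7a1 (SE, n = 3, adjusted p = 0.835 in limma) and -1.56 ± 0.54 for Cox8b (SE, n = 3, unadjusted p = 0.0273, adjusted p = 0.805 in limma). Among all genes 3.53% had an unadjusted p under 0.05 and were lower in the chromium restriction group.

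The isoforms of the same subunits that most tissues use did not have this pattern. Cox7a2, Cox8a and Cidec come from a list of gene families and Ucp3 from the list of further brown fat genes, and the pairs were picked after their values were seen. Cox7a2, the counterpart of Cox7a1, stood 0.04, 0.08 and 0.35 log2 units above the chromium restriction mean in control replicates 1, 2 and 3, where Cox7a1 stood 2.94, 0.24 and 0.82 above it. Cox8a stood 0.07, 0.22 and 0.39 above, against 2.84, 0.65 and 1.18 for Cox8b. Cidec, a relative of Cidea that enlarges lipid droplets in white fat, stood 0.07, 0.21 and 0.14 above, against 4.89, 0.32 and 1.48 for Cidea. Ucp3, an uncoupling protein relative known from muscle and brown fat, stood 0.31, 0.32 and 0.63 above. In these 4 pairs, picked for that pattern, the excess of control replicate 1 lay with the brown fat gene. Mecom, a relative of Prdm16 on the family list, went the other way: control replicate 1 was its highest array, 0.65 above the chromium restriction mean, against 0.08 for Prdm16. Control replicate 1 was the highest array for 4 of the 19 measured genes on the family list, where 17.4% of all genes have it highest.

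**Figure D2:**
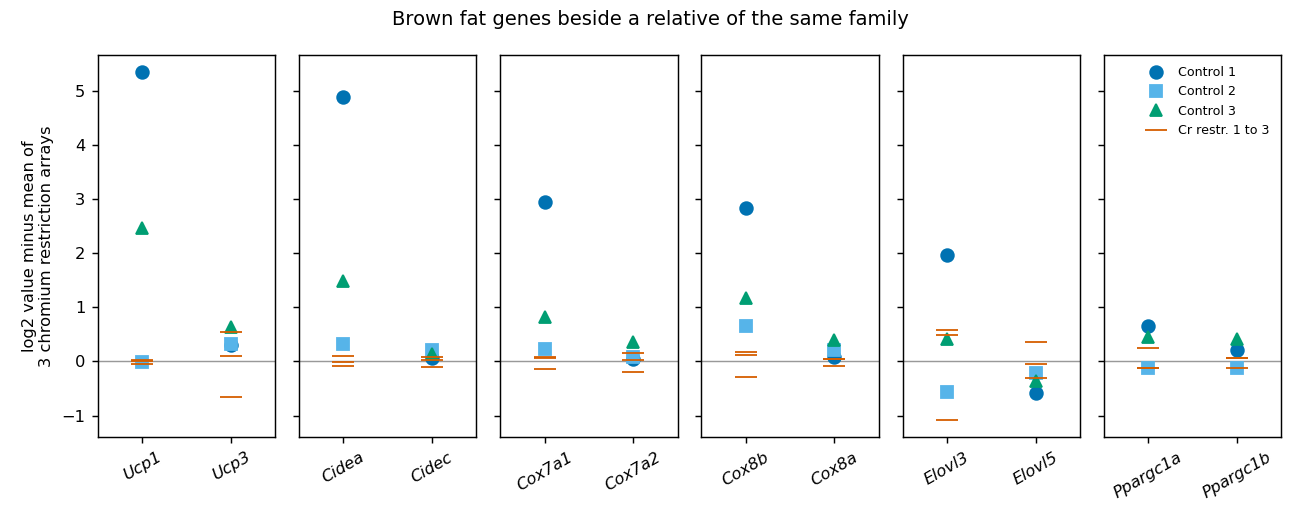
Each panel sets a brown fat gene (left) beside a relative of its family (right), as the log2 value minus the mean of the 3 chromium restriction arrays (vertical axis), with symbols for the 3 controls and orange dashes for the 3 chromium restriction arrays. Control replicate 1 is 5.34 above zero for Ucp1 and 4.89 for Cidea, against 0.31 for Ucp3 and 0.07 for Cidec.

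Elovl3 encodes a fatty acid elongase that brown fat induces in the cold and that liver also expresses. Its values were 6.29, 4.73 and 6.39 in the chromium restriction arrays and 7.76, 5.24 and 6.22 in the controls, each in the order of the replicate numbers. The groups overlapped widely, and within the chromium restriction group replicate 2 was lower than the other 2 arrays by more than 1 log2 unit. The difference was -0.60 ± 0.73 (SE, n = 3, adjusted p = 0.986 in limma). Within the chromium restriction group replicate 2 was also lowest for liver transcripts. Control replicate 1, the highest array for Elovl3, was not rich in them. Averaged over 7 liver genes, chromium restriction replicates 1 and 3 stood at 11.33 and 10.90 and replicate 2 at 6.55. The controls stood at 6.56 to 6.94 on that mean, with replicate 1 the lowest of them. With that mean as a covariate the Elovl3 difference was -1.55 ± 0.87 (SE), and without the 2 liver-rich arrays it was -1.68 ± 0.96 (SE, 1 array against 3, the single array being assumed to vary like the controls). Without control replicate 1 the Elovl3 difference was 0.073, on the other side of zero. Both liver-rich arrays were in the chromium restriction group, and whether liver transcripts bear on the Elovl3 values was not tested.

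Dio2, the deiodinase that makes active thyroid hormone inside brown adipocytes, was flat and dim. Its values were 4.87, 5.03 and 4.99 in the chromium restriction arrays and 5.04, 5.14 and 5.05 in the controls. The groups did not overlap, but only 0.0093 log2 units separated the nearest values, and the difference was -0.11 ± 0.08 (SE, n = 3, adjusted p = 0.928 in limma). On a second, dimmer probe set control replicate 2 was highest (4.96) and control replicate 3 lowest. Neither probe set showed the excess of control replicates 1 and 3 that Ucp1 had.

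Ppargc1a encodes PGC-1alpha, the coactivator that drives mitochondrial biogenesis and Ucp1 transcription. It was at 5.96, 5.95 and 6.33 in chromium restriction replicates 1 to 3 and at 6.74, 5.97 and 6.54 in control replicates 1 to 3. The order of the controls was that of Ucp1, at a smaller scale, and control replicate 2 lay within the chromium restriction range. The difference was -0.34 ± 0.22 (SE, n = 3, adjusted p = 0.911 in limma). Its relative Ppargc1b stood 0.20, -0.13 and 0.41 from the chromium restriction mean in control replicates 1 to 3.

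Prdm16 encodes a zinc finger regulator that commits precursors to the brown lineage. Its values were 5.96, 5.74 and 5.95 in the chromium restriction arrays and 5.96, 5.92 and 5.60 in the controls, and control replicate 3, in which Ucp1 was raised, was the lowest array. The difference was 0.06 ± 0.12 (SE, n = 3, adjusted p = 0.991 in limma), and its sign turned in 4 other settings, among them the mean of both Prdm16 probe sets (-0.010). Zic1, a transcription factor gene that marks classical interscapular brown fat rather than beige cells, was at 4.91, 4.89 and 4.86 in the chromium restriction arrays and 4.89, 4.84 and 4.87 in the controls. Zic1 had a range of 0.07 log2 units over 6 arrays, against 5.39 for Ucp1. Its difference was 0.02 ± 0.06 (SE, n = 3, adjusted p = 0.997 in limma), and it turned to -0.021 with median centring.

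Over the 9 measured genes the median log2 difference was -0.60, against -0.018 over all genes, with 7 lower and 2 higher in the chromium restriction group. Of all genes 56.8% were lower. Adjusted calls were made for 0 of the 9 members and for 0.194% of all genes, and 40 of the 43 genes called lay in table rows whose values carry extra digits, in which no member lay. Every chromium restriction array lay below every control for 4 of 9 members, Cidea, Cox7a1, Cox8b and Dio2, and for 6.06% of all genes. With quantile normalization, or with the mean of all probe sets of a gene, that count was 3. The median moved with single arrays: it was -0.17 without control replicate 1, -1.19 without control replicate 2 and -0.27 without chromium restriction replicate 2.

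The differences of Ucp1, Cidea, Cox7a1 and Cox8b kept their sign without any 1 array, but their size depended on which control was left out. For Ucp1 it was -1.22 ± 0.71 without control replicate 1, -3.90 ± 0.83 without control replicate 2 and -2.66 ± 1.53 without control replicate 3 (SE). Cidea differed by -0.90 ± 0.34, -3.18 ± 0.98 and -2.61 ± 1.31 in the same order. Cox7a1 differed by -0.53 ± 0.19 without control replicate 1 and by -1.88 ± 0.61 without control replicate 2, and Cox8b by -0.91 ± 0.22 and -2.01 ± 0.50. None of these passed the adjusted threshold in limma, and the lowest adjusted p for any of the 4 genes with 1 array left out was 0.401. Without any 1 chromium restriction array Ucp1 stayed between -2.61 and -2.57 and Cidea between -2.29 and -2.18. Cox8b moved more, from -1.64 to -1.41, a range to set beside its -1.75 without control replicate 3.

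**Figure D3:**
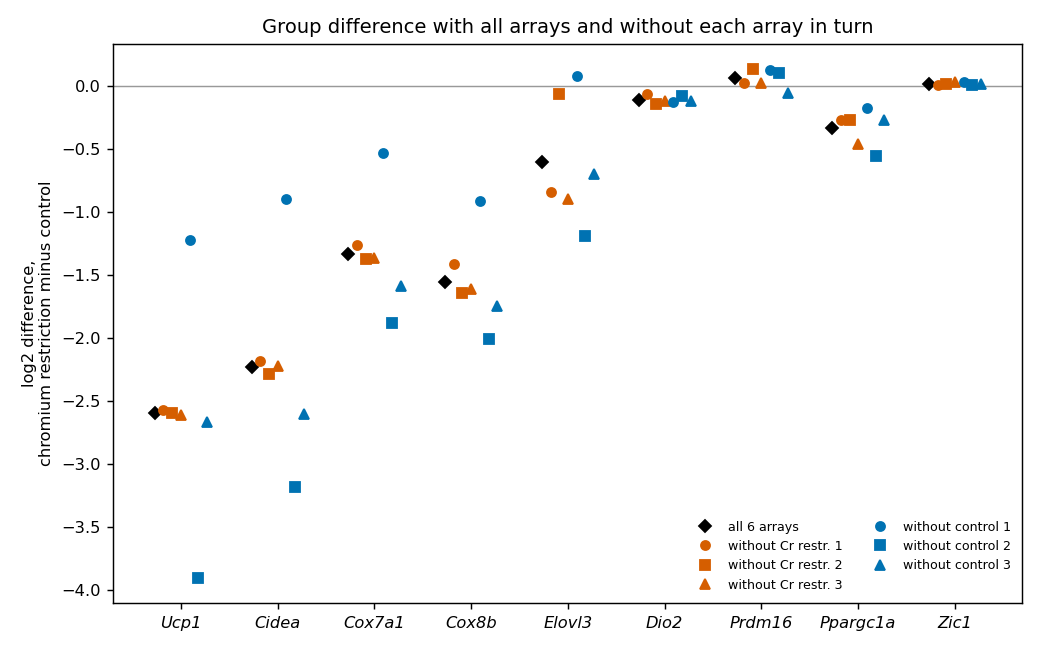
Log2 difference, chromium restriction minus control (vertical axis), of each measured gene with all 6 arrays (black diamond) and without each array in turn (orange for a chromium restriction array, blue for a control). For Ucp1 the value runs from -3.90 without control replicate 2 to -1.22 without control replicate 1, and Elovl3 crosses zero without control replicate 1.

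The spread among the 3 controls was large for these genes by the standard of the whole array. Ranked by SD over the control arrays, Ucp1 was first of 22180 genes (2.68 log2 units) and Cidea second (2.38). Cox7a1 was at rank 6 (SD 1.42), Elovl3 at rank 11 (1.27) and Cox8b at rank 15 (1.14), while the median gene had an SD of 0.13. Ppargc1a came at rank 692 (0.40), and Prdm16 (0.20), Dio2 (0.06) and Zic1 (0.02) lay further down at ranks 5781, 18326 and 21096. Among the chromium restriction arrays the SD was 0.04 for Ucp1, 0.10 for Cidea, 0.13 for Cox7a1 and 0.25 for Cox8b, where the median gene had 0.14. Only Elovl3 among the members was highly variable there, at rank 287 with an SD of 0.93.

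**Figure D4:**
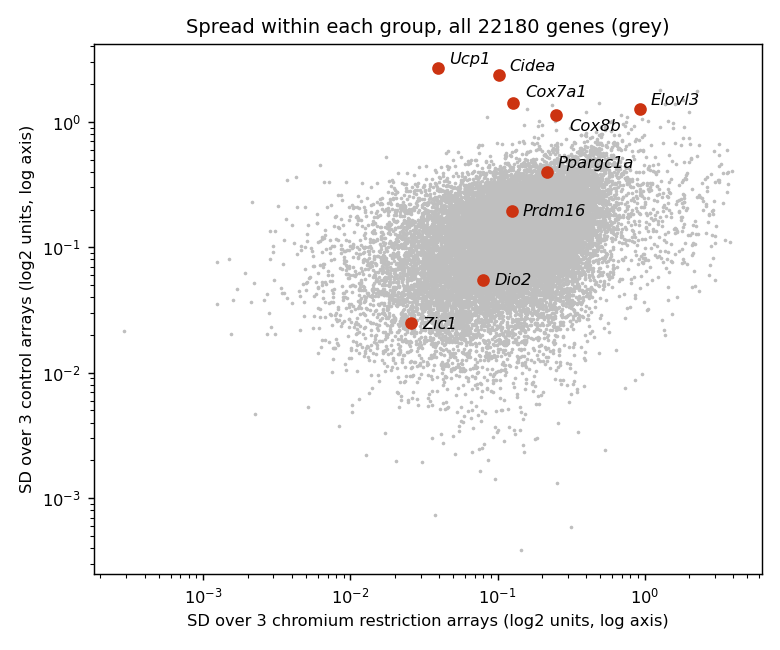
SD over the 3 chromium restriction arrays (horizontal) against SD over the 3 control arrays (vertical), both in log2 units on log axes, for all 22180 genes (grey) and the 9 measured members (red). Ucp1 (0.04 against 2.68) and Cidea (0.10 against 2.38) lie at the top edge, and Zic1 (0.03 against 0.02) lies among the steadiest genes.

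Control replicate 1 was the highest of the 6 arrays for 6 of 9 members, against the same 17.4% of all genes. By at least 1 log2 unit it exceeded every other array for 11 genes, 0.0496% of all, a count made after the values were seen. Of those 11 genes 5 are members: Cidea, Ucp1, Cox7a1, Cox8b and Elovl3. The other 6 were Pdk4, Igfbp3, Coq8a, Inmt, Gpd2 and Rergl. Pdk4, the kinase that shuts off pyruvate dehydrogenase when fat is burned, was at 10.88 in control replicate 1 and at 9.02 to 9.42 elsewhere. Gpd2, the mitochondrial glycerol-3-phosphate dehydrogenase that is abundant in brown fat, was at 9.57 and at 7.48 to 8.52 elsewhere. Coq8a, which supports coenzyme Q synthesis, was at 8.82 and at 7.18 to 7.63 elsewhere. Such an excess was found for 0 genes in control replicates 2 and 3, and for 14, 55 and 5 genes in chromium restriction replicates 1, 2 and 3.

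The genes most like Ucp1 over the 6 arrays were sought among 300 genes with a range of at least 2 log2 units. The correlation is a description over 6 arrays that share control replicate 1 as the extreme point. The range cut was made on the same 6 values. Genes of smaller range, such as Pdk4 (1.87) and Coq8a (1.64), were not ranked. Predicted loci and olfactory and vomeronasal receptors were left out too. Among the ranked genes the highest Pearson's r with Ucp1 belonged to 3 members, at 0.98 for Cidea, 0.98 for Cox7a1 and 0.96 for Cox8b. Elovl3, at 0.79, came after the non-members Angpt1 and Gpd2. Ppargc1a, whose range was under 2 log2 units, had 0.89, whereas Zic1 had 0.26, Dio2 0.18 and Prdm16 -0.04. Of the ranked genes outside the members, Angpt1 (0.86), an angiopoietin, and Gpd2 (0.85) led. The 12 leading ones ran on through Bhlhe41, a clock repressor gene (0.76), and Spon1 (0.73), to Elovl6 (0.42). Between them lay Hadh, Inmt, Fam13a, Igfbp3, Slc1a3, Parm1 and Cytl1, and Hadh lies in a row with extra digits. Angpt1 was at 5.25, 6.15 and 5.96 in the chromium restriction arrays and at 7.54, 6.46 and 6.79 in the controls. None of the ranked genes outside the members reached the r of Cox8b, a comparison limited by the range cut and the genes left out.

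Of 32 further brown fat genes 29 were measured, with a median difference of -0.15. In the chromium restriction group 20 were lower and 9 higher, where 56.8% of all genes were lower. Fabp3, a fatty acid binding protein gene, was the only member of that list called over all genes, and it was higher, in a row with extra digits (1.11 ± 0.07, SE, n = 3, adjusted p = 0.00351 in limma). The next smallest p-values, none of which passed, belonged to Cpt2, a carnitine palmitoyltransferase gene, Slc25a20, the carnitine-acylcarnitine carrier gene, and Acot2, an acyl-CoA thioesterase gene. Cpt2 differed by -0.40 ± 0.08, Slc25a20 by -0.73 ± 0.16 and Acot2 by -1.20 ± 0.30 (SE, n = 3), with adjusted p-values of 0.462, 0.547 and 0.636 in limma. Control replicate 1 was highest for 12 of the 29, against 17.4% of all genes. Letmd1, a mitochondrial protein gene needed for brown fat heat production, was at 9.45 in control replicate 1, 8.66 and 8.73 in the other controls and at most 8.38 in the chromium restriction arrays. Ebf2, a transcription factor gene of brown precursors, was highest in control replicate 3 (8.22), and Lhx8, a marker of classical brown fat, stayed at 4.68 to 4.84. Slc27a2 and Pank1, which liver also expresses, were at 10.99 and 8.86 in chromium restriction replicate 1 and at 10.28 and 8.08 in replicate 3, the arrays with high liver transcripts.

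Of 12 beige cell markers 10 were lower and 2 higher, with a median difference of -0.06 and 0 called. The share lower among all genes was 56.8%. P2rx5, a purinergic receptor gene, differed by -0.32 ± 0.11 (SE, n = 3, adjusted p = 0.772 in limma), and Slc36a2, an amino acid transporter gene, by -0.69 ± 0.31 (SE, n = 3, adjusted p = 0.817 in limma). Tnfrsf9 and Hoxc9 differed by -0.16 and -0.23. Control replicate 1 was highest for 5 of the 12, against 17.4% of all genes. The order of the controls differed between markers. Tbx1 ran from 5.39 to 6.06 and Tmem26 from 5.48 to 5.86 over the 6 arrays, and for both control replicate 1 was highest and control replicate 3 lowest. Among the controls alone Car4, a carbonic anhydrase gene, had the order of Ucp1, at 8.53, 7.61 and 8.39 in replicates 1, 2 and 3. So did Sp100 (8.71, 8.46 and 8.60) and Shox2 (5.43, 5.19 and 5.40). Unlike for Ucp1, the chromium restriction arrays were not all low. In chromium restriction replicates 1, 2 and 3 Car4 was at 8.08, 7.79 and 8.56, Sp100 at 8.70, 8.88 and 8.52, and Shox2 at 5.16, 5.38 and 5.34.

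**Figure D5:**
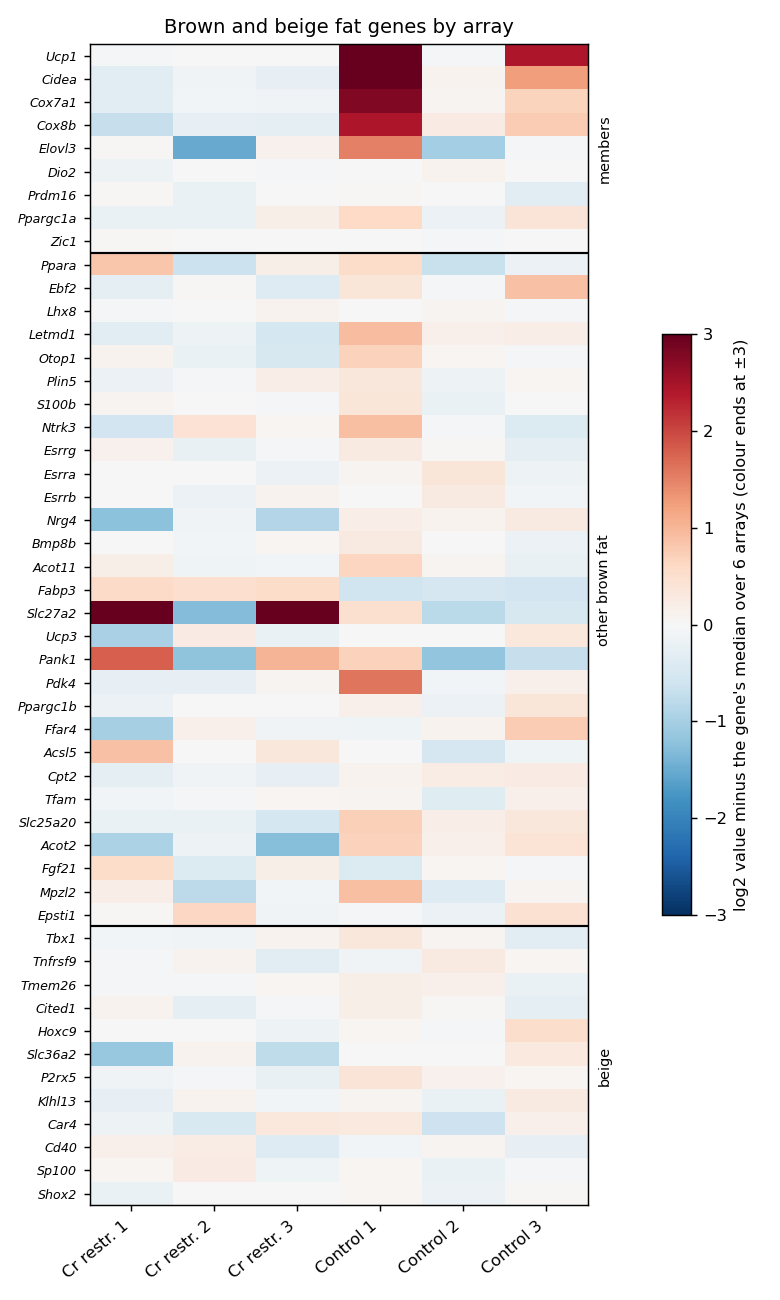
Log2 value minus the gene's own median over the 6 arrays (colour, red above and blue below, ending at ±3) for the 9 measured members, 29 further brown fat genes and 12 beige markers, with arrays as columns. Red fills control replicate 1 for Ucp1, Cidea, Cox7a1 and Cox8b, and Slc27a2 is red in chromium restriction replicates 1 and 3.

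The signalling genes that switch the programme on differed little. Of 22 such genes 18 were measured, 12 lower and 6 higher (56.8% of all genes were lower), with a median of -0.07 and 0 called. The smallest p-values belonged to genes of the cyclic AMP pathway and lipolysis: Pde3b, the phosphodiesterase through which insulin curbs cyclic AMP, differed by -0.73 ± 0.22, Prkar2b, a regulatory subunit of protein kinase A, by -0.50 ± 0.15, Prkaca, its catalytic subunit, by -0.32 ± 0.12, and Pnpla2, the triglyceride lipase ATGL, by -0.35 ± 0.11 (SE, n = 3, adjusted p from 0.749 to 0.817 in limma). In these 4 of the 18 genes every chromium restriction array lay below every control, as for 6.06% of all genes, and for Prkaca the nearest values were only 0.0017 log2 units apart. Control replicates 1, 2 and 3 were close to each other here, at 11.41, 11.36 and 11.30 for Pde3b, unlike for Ucp1.

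For routes of heat production that do not need Ucp1, such as creatine cycling, 0 of 13 genes were called. The difference was above zero for 10 and below zero for 3, with a median of 0.09, where 56.8% of all genes were below zero. Ckb, the creatine kinase that acts in this cycle, differed by 0.36 ± 0.12 and Gamt, which makes creatine, by 0.73 ± 0.30 (SE, n = 3, adjusted p = 0.772 and 0.817 in limma). Ckb was at 9.16, 9.35 and 9.57 in the chromium restriction arrays and at 9.06, 9.02 and 8.92 in the controls, with no overlap. Gamt was highest in chromium restriction replicates 1 and 3 (8.99 and 8.52), the liver-rich arrays, and its groups overlapped. Ckb was the only one of the 13 with every chromium restriction array above every control, and among all genes 3.53% had that order.

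Genes that hold the brown programme back were measured for 11 of 12, with 6 lower (56.8% of all genes were), 5 higher and 0 called. Zfp423, which keeps white adipocytes white, was listed 0.87 ± 0.10 higher (SE, n = 3, adjusted p = 0.0534 in limma), in a row with extra digits. Tle3, a corepressor that competes with Prdm16, differed by 0.59 ± 0.19, and Nrip1 (RIP140), a repressor of Ucp1, by -0.50 ± 0.15 (SE, n = 3, adjusted p = 0.770 and 0.751). Nr1h3, the liver X receptor alpha gene, differed by -0.41 ± 0.11 (SE, adjusted p = 0.707 in limma). These 4 genes differed in both directions.

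The list of white fat markers also holds general adipocyte genes such as Fabp4, Adipoq and Plin1. On it Lep, which encodes leptin, was at 11.75 or above on every array and Fabp4 at 13.53 or above. Others such as Tcf21, at 6.28 to 6.49, were much dimmer. Control replicate 1 was the highest array for 0 of the 13 listed genes, against 17.4% of all genes. Retn was called higher and Adipoq lower, both in rows with extra digits. Sfrp5 and Mest, genes known from expanding white fat, were higher by 1.75 ± 0.55 and 1.57 ± 0.58 (SE, n = 3, adjusted p = 0.770 and 0.817 in limma). In bulk tissue, differences between arrays in the number of brown or beige cells and in RNA per cell cannot be told apart. The labels give no fat depot, so differences in the tissue taken cannot be told apart from these either.

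Markers of other tissues that share brown fat genes were examined array by array. The mean of 16 skeletal muscle markers was 5.76 in control replicate 1, 5.77 in control replicate 2, 5.68 in control replicate 3 and 5.65 to 5.78 in the chromium restriction arrays. Control replicate 1 was highest for 5 of the 16, by at most 0.11 log2 units (Atp2a1), against 17.4% of all genes. The defining myosin Myh4 ran from 4.66 to 4.81 over all arrays. The means of the heart markers were 5.66, 5.82 and 5.69 in control replicates 1 to 3, and those of nerve markers, which include the noradrenaline synthesis genes Th and Dbh, were 5.19, 5.24 and 5.05. Adrenal and kidney markers had means of 5.04 and 5.21 in control replicate 1, within the range of the other arrays. The means of the intestinal and lymphoid markers were highest in chromium restriction replicate 2, at 6.23 and 7.26. Not every intestinal marker had that order. Fabp2 was at 7.30, 7.15 and 7.31 in chromium restriction replicates 1 to 3 and at 5.27, 5.50 and 5.04 in control replicates 1 to 3. It was called higher (adjusted p = 0.00358 in limma), in a row without extra digits. The part of the intestinal and lymphoid markers in the results was not tested. In all 6 arrays Xist, expressed from the inactive X chromosome, was at 10.07 to 10.56 and 3 Y-linked genes were at 4.50 to 5.20, so these genes did not separate the arrays that differed in Ucp1.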

How the data were processed

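Total RNA of offspring adipose, biotin-labelled, was hybridised to 6 single-colour arrays, per the labels. The deposited table holds 33793 probe sets whose values run from 3.49 to 14.86, with array medians between 5.44 and 5.57, and were read as log2; neither the labels nor the table state the log base, the summarisation or the normalization. No further normalization was applied. The supplied platform annotation named 23521 probe sets with 1 symbol and 1814 with several, and 8458 are unnamed here. The brightest probe set stood for each of 22180 genes. The diets were compared in limma 3.58.1 (R 4.3.3) by lmFit and eBayes; tests are two-sided and p-values were adjusted over all genes by Benjamini-Hochberg. No set test was run. The number of arrays, 3 a group, limits the precision.

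The members and lists were chosen with earlier results of these data known. Named genes are all members, at most 4 genes a list by smallest p, and the 12 genes most like Ucp1 among those with a range of at least 2 log2 units, leaving out predicted loci and olfactory and vomeronasal receptors, besides marker genes set beside a member. Other genes were named after their values were seen: those that stand out in control replicate 1, the family pairs and Mecom, and Letmd1, Ebf2, Lhx8, Slc27a2, Pank1, Tbx1, Tmem26, Car4, Sp100, Shox2 and Tcf21. In 64 rows of the table some values (183 in all) carry more digits than single precision gives; such rows are marked as having extra digits. The scripts were tested on simulated data.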

Additional observations from a re-analysis of the deposited data

How the results depend on the processing

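No member passed an adjusted p of 0.05 in limma under any of the 17 alternatives, while 0 to 5 members had an unadjusted p under 0.05. The 43 genes called over the whole array became 0 with the replicate number as a block (1337 at an unadjusted p under 0.05), 0 without rows with extra digits (1264) and 6 without the pair of liver-rich arrays; leaving out 1 array gave 24 to 439, the highest without chromium restriction replicate 2. Same-numbered deviations from the group means correlated at -0.12, -0.095 and 0.078, and differently numbered ones at -0.223 to 0.285. With 3 arrays a group, this cannot decide whether the numbers pair the samples. Leaving out 1 array gave a median over members of -1.19 to -0.17, 4 to 6 members below all controls (3 with quantile normalization and 3 with the mean of all probe sets) and 6 to 8 with control replicate 1 highest. Leaving out an array cannot lower either of these counts, so those ranges do not show that the counts are stable. The filter on dim genes kept 6 of the 9 members, with a median of -1.44, and the liver covariate gave -1.18. Prdm16 turned to -0.010 with the mean of its probe sets, -0.063 with the liver covariate and -0.087 without the liver-rich arrays, and ran from -0.055 to 0.13 with 1 array left out. Zic1 turned to -0.021 with median centring. Elovl3 ran from -1.19 to 0.073 with 1 array left out. Ucp1, Cidea, Cox7a1, Cox8b and Ppargc1a kept their sign in all 17, and Dio2 in those other than the filter on dim genes, which removed it. The cause of these shifts was not tested.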
